A study of Mus musculus with 7 samples.

Results

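In Setdb1 cKO iMEFs treated with 4OHT, 1375 H3K9me3 peaks lay close to, but not on, an H3K9me3 peak of the untreated cells. These KO-only peaks beside WT peaks were chosen from the autosomal rows of the KO peak list: a member shared no base with any WT peak and had a WT peak at a gap of at most 10000 bp. They were 1375 of 3668 autosomal KO peaks, or 37.5%, and the rule alone fixed that share. Another 1737 autosomal KO peaks shared no base with a WT peak and lay farther than 10000 bp from one, and 556 overlapped a WT peak. The members lay beside 1158 different WT peaks of the 21957 on autosomes. A KO-only peak is a place where no WT peak was called, since the lists hold no WT coverage at that position.

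The cells were iMEFs, immortalised mouse embryonic fibroblasts, of a line recloned from single cells in which 4-hydroxytamoxifen (4OHT) deletes Setdb1. The WT group was the same Setdb1 cKO iMEF line with no treatment, and the KO group received 4OHT for 4 days and was harvested at day 7. Chromatin was precipitated with the H3K9me3 antibody ab8898 in both groups. From each group 1 library was compared, so no difference below has a replicate check and no test was possible. An effect of 4OHT itself cannot be told apart from the deletion. There were 3775 peaks in the KO list and 23190 in the WT list, and 2.34% of the autosomal WT peaks shared bases with a KO peak and are called retained, the others lost.

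Setdb1 is a histone methyltransferase that trimethylates lysine 9 of histone H3. It is brought to endogenous retroviruses by Trim28 and KRAB zinc finger proteins, and the mark can spread along the chromatin around such a site. In MEFs, however, the paper found that keeping the VL30 family of these retroviruses silent needed Trim28 only to a small extent. Other enzymes, Suv39h1 and Suv39h2, place the same mark over pericentromeric repeats.

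The 6 members with the highest score, the −log10 q of the peak caller, show what sequence the most significant members held. They are printed 5′ to 3′ on the plus strand of mm9, in lower case with each CpG in capitals.
chr16:3236195-3236264: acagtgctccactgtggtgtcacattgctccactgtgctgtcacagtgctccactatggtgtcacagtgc
chr10:49748604-49748685: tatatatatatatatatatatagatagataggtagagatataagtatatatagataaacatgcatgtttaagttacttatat
chr5:16973958-16974117: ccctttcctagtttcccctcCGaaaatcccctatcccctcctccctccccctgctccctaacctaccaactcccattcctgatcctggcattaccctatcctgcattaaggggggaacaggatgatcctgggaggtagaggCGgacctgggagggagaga
chr10:78827114-78827250: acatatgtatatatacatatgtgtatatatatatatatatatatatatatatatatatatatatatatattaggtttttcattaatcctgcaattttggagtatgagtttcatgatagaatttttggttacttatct
chr7:67003433-67003502: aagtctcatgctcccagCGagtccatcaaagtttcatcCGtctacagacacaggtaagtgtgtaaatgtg
chr17:3010932-3010997: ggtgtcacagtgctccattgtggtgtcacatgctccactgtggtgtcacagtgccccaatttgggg

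The first and the last of these, near the starts of chromosomes 16 and 17, had 17 words of 12 bases in common. The most widespread of these words, TGCTCCACTGTG, was chosen after the sequences were seen. On either strand it was present in 9 members (0.655%, Wilson 95% interval 0.345 to 1.24), in 1 KO-only peak farther from WT peaks (0.0576%), in 21 KO peaks on WT peaks (3.78%) and in 69 autosomal WT peaks (0.314%). Of the 9 members, 8 started within the first 3.5 Mb of a chromosome. The second and the fourth contain runs of alternating T and A, with a GC content of 17.1% and 17.5%.

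The chr16 member was the tallest, with a pileup of 82 fragments at its summit. Pileup is the fragment coverage reported by the caller, and the fold enrichment compares it with the local background, each with 1 added. Its fold enrichment was only 3.55, over a local background of 22.4 fragments, and its score was 17.1. The nearest WT peak lay 297 bp away, had a pileup of 41 over a background of 11.6, and was retained. The first chr10 member had nearly the same score, 16.9, from a pileup of 22 over a background of 1.09, which made its fold enrichment of 11.005 the highest among the members. Its WT neighbour, 700 bp away, had a pileup of 9 and consisted of sequence with a median copy number of 2481.5 in the genome. The chr17 member had a pileup of 46 over a background of 11.2, and its WT neighbour at 2656 bp a pileup of 31. Of the other 3, the member on chromosome 5 had a pileup of 36 and a gap of 5401 bp. The other member on chromosome 10, in an intron of the vomeronasal pheromone receptor gene Vmn2r82, had a pileup of 19 and a gap of 8398 bp. The member on chromosome 7 had a pileup of 33 and a gap of 322 bp. All 6 exceeded the pileup of their nearest WT peak, but they had been chosen for a high score in KO, and over all members 28.7% did so.

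Sequence held in common with the neighbouring WT peak was rare. In 13 of the 1375 members (0.945%, 0.553 to 1.61) at least 1 word of 20 bases, on either strand, was also present in the nearest WT peak. A pair on chromosome 11, in the gene body of Dock2, and a pair at the start of chromosome 17 show what those looked like, with all shared 20-base words in capitals. In both pairs the WT peak was the taller, with a pileup of 54 against 24 on chromosome 11 and of 46 against 19 on chromosome 17.
KO member chr11:34444507-34444589: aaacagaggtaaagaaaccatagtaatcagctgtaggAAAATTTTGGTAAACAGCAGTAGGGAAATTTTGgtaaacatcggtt
WT neighbour chr11:34444316-34444424: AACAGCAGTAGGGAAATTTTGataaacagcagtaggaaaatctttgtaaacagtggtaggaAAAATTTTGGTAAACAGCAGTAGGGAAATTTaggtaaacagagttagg
KO member chr17:3035465-3035582: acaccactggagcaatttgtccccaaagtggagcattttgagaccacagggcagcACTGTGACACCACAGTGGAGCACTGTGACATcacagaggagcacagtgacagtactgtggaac
WT neighbour chr17:3036183-3036476: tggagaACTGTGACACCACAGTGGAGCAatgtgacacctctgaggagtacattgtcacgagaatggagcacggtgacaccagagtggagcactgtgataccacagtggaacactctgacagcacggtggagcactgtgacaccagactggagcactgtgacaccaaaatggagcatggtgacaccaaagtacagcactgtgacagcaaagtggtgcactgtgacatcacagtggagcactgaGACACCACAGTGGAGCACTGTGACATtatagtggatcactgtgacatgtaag

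No CpG was present in 795 members (57.8%, 55.2 to 60.4), and 16 of the 1375 held 5 or more (1.16%, 0.718 to 1.88). Over all autosomal KO peaks the shares were 59.6% and 2.67%, and over WT peaks 39.4% and 6.87%. These are counts per peak, not corrected for width, and the median width was 89 bp for members and 138 bp for WT peaks. CpG number over that expected from a peak's C and G had an upper quartile of 0.271 in members and 0.302 in WT peaks. The medians of this ratio were 0 and 0.144. A member of 97 bp with 6 of them, in the lincRNA gene body of Gm16889 on chromosome 4 and at the promoter of the pseudogene Gm13162, is printed with CpG in capitals. Its pileup was 11 and it lay 174 bp from a WT peak of pileup 13.
chr4:146498873-146498969: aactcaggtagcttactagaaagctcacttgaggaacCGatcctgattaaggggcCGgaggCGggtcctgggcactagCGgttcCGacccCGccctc

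The members lay at a median gap of 1651 bp from the nearest WT peak, with a range from 0 to 9977 bp. The gap was at most 1000 bp for 513 members (37.3%, 34.8 to 39.9) and at most 100 bp for 61. WT peaks lay within 10 kb on both sides of 544 members (39.6%, 37.0 to 42.2), while 394 had them on the lower-coordinate side only and 437 on the higher-coordinate side only. Exactly 1 WT peak was within 10 kb of 512 members, and 340 members had 5 or more. With starts taken to count from 1, the only member abutting a WT peak was chr12:9688381-9688544. If starts count from 0, this pair does not abut. The member had a pileup of 9 next to a WT peak of pileup 10. Both consisted of sequence of high copy number, a median of 1993 in the KO peak and of 2262 in the WT peak. The members at the largest gaps inside the limit, 9977, 9973 and 9952 bp, all had a pileup of 9, and so did the KO-only peaks just outside it, at 10002, 10002 and 10034 bp.

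In height the members fell between the farther KO-only peaks and the KO peaks on WT peaks. The members' median pileup was 10 fragments, with quartiles of 9 and 13, a 95th percentile of 30 and a maximum of 82. The lowest pileup called in the list, 9, was that of 535 members (38.9%, 36.4 to 41.5), 62.9% of the KO-only peaks farther away (60.6 to 65.2), 15.8% of the KO peaks on WT peaks (13.0 to 19.1) and 43.1% of the autosomal WT peaks (42.4 to 43.7). A pileup of 15 or more was seen in 22.3% of members (20.2 to 24.6), against 4.26% of the farther KO-only peaks (3.41 to 5.32), 55.4% of the KO peaks on WT peaks and 8.01% of WT peaks. The members were narrow, with a median width of 89 bp and a range from 65 to 1361 bp. The median width was 78 bp for the farther KO-only peaks, 140.5 bp for KO peaks on WT peaks and 138 bp for WT peaks.

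The median fold enrichment was 4.84 for the members and also for the farther KO-only peaks, and 4.25 for KO peaks on WT peaks. A KO peak with the lowest pileup called and the lowest background, 1.07 fragments, has a fold enrichment of 4.84. The equal medians therefore lie at a value set by these limits and do not show that the classes were alike. The lower quartiles were 4.40 for the members, 4.84 for the farther KO-only peaks and 2.96 for KO peaks on WT peaks. The upper quartiles lay closer together, at 4.84, 5.01 and 4.84. The local background, recovered from the pileup and the fold enrichment, also differed between the classes. It was above 3 fragments in 19.3% of members (17.3 to 21.4), in 2.76% of the farther KO-only peaks (2.09 to 3.64), in 51.8% of KO peaks on WT peaks (47.6 to 55.9) and in 3.82% of WT peaks (3.58 to 4.08). Conversely, 39.1% of members (36.5 to 41.7) and 70.5% of the farther KO-only peaks (68.3 to 72.6) sat at the lowest background of the KO list, 1.07 fragments.

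**Figure D1:**
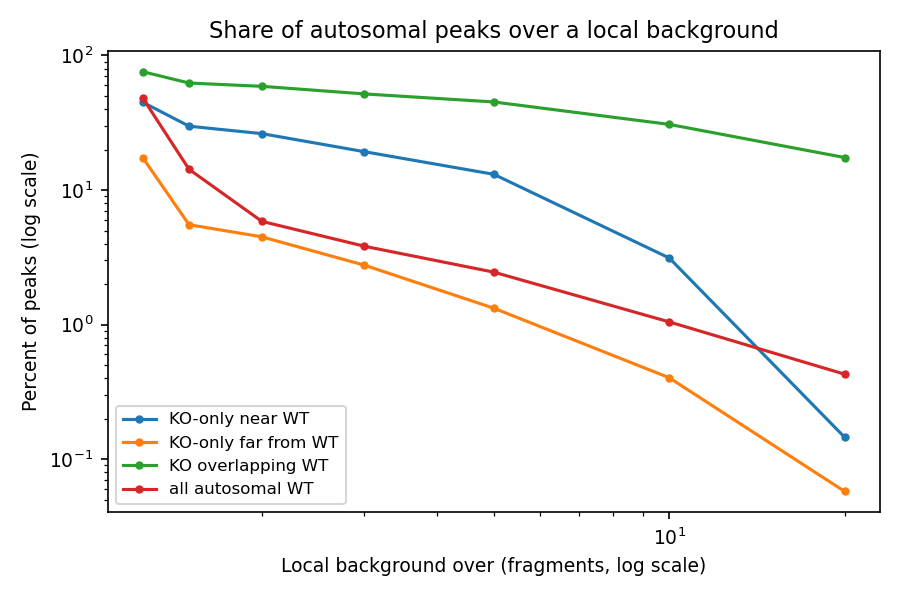
Percent of autosomal peaks (vertical, log scale) whose local background exceeded the value on the horizontal axis (fragments, log scale), with a line for each class of peak. At a background over 5 fragments the members stood at 13.1%, the farther KO-only peaks at 1.32%, KO peaks overlapping a WT peak at 45.1% and WT peaks at 2.45%.

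The copy number of a peak was taken as the median number of occurrences of its 31-base words in the genome. Single-copy sequence, with a median of 1, made up 635 members (46.2%, 43.6 to 48.8), 75.5% of the farther KO-only peaks (73.5 to 77.5), 30.6% of KO peaks on WT peaks (26.9 to 34.5) and 29.6% of WT peaks (29.02 to 30.2). Sequence of over 1 to 10 copies made up 33.9% of the members (31.4 to 36.4), 10.2% of the farther KO-only peaks (8.85 to 11.7), 42.4% of KO peaks on WT peaks (38.4 to 46.6) and 15.6% of WT peaks (15.1 to 16.1). Sequence of over 1000 copies was scarce in every class of KO peak, at 6.55% of the members (5.36 to 7.98), 7.71% of the farther KO-only peaks and 6.65% of KO peaks on WT peaks, against 34.0% of WT peaks (33.4 to 34.6). Simple repeats, runs of at least 18 bases of a unit of up to 6 bases, were seen in 15 members (1.09%, 0.662 to 1.79) and in 4.15% of the farther KO-only peaks (3.30 to 5.19). The authors placed a read with several matches at 1 of them at random, and its part in these shares was not tested.

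Among the members, those of over 1 to 10 copies were the tallest class. The 635 single-copy members had a median pileup of 9, a median background of 1.07 and a median gap of 2447 bp. The 466 members of over 1 to 10 copies had a median pileup of 14, a median background of 2.59 and a median gap of 1147.5 bp. The median pileup was 10 for the 141 members of over 10 to 100 copies and for the 43 of over 100 to 1000, and 9 for the 90 of over 1000. The median GC content of the members was 37.3%.

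Single-copy sequence and the lowest pileup were less frequent among the members closest to a WT peak than among those near the limit. Single-copy sequence was held by 27.9% of the members at gaps up to 100 bp (18.2 to 40.2), by 43.3% above 1 and up to 2 kb (37.2 to 49.6) and by 65.6% above 5 and up to 10 kb (59.9 to 70.9). Just outside, above 10 and up to 20 kb, it was 71.2% (66.5 to 75.5), and at gaps above 100 kb it was 76.1%. The share with a pileup of 9 was 23.0% at gaps up to 100 bp (14.2 to 34.9), 51.2% above 5 and up to 10 kb (45.4 to 57.0) and 63.8% above 10 and up to 20 kb (58.9 to 68.4).

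**Figure D2:**
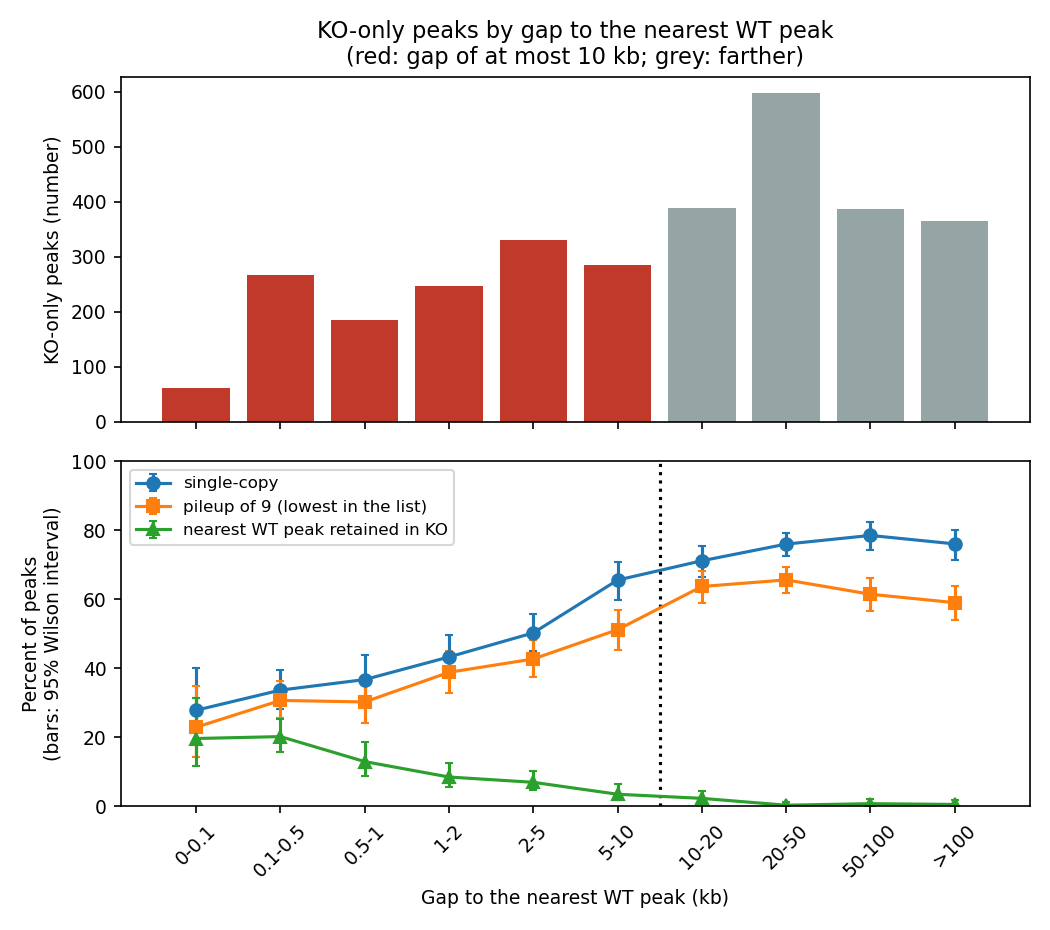
Upper panel, number of autosomal KO-only peaks by gap to the nearest WT peak (kb), in red for the 1375 peaks within 10 kb and in grey for the 1737 farther ones. Lower panel, percent of these peaks that were single-copy, had a pileup of 9, or lay nearest to a retained WT peak, with 95% Wilson intervals as bars and the 10 kb limit dotted; single-copy shares ran from 27.9% in the closest class to 76.1% in the farthest.

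The share of members whose nearest WT peak was retained was higher than the share of retained peaks among all WT peaks. Of the 1375 members, 144 had a retained WT peak as their nearest (10.5%, 8.96 to 12.2), compared with 0.921% of the farther KO-only peaks (0.568 to 1.49) and with 2.34% of all autosomal WT peaks (2.14 to 2.54). The share was 19.7% at gaps up to 100 bp (11.6 to 31.3), 20.2% above 100 and up to 500 bp (15.8 to 25.4), 8.50% above 1 and up to 2 kb and 3.51% above 5 and up to 10 kb. The other 1231 members lay beside a WT peak that was lost, so that there a KO peak was called on one stretch and only a WT peak on the next. Lost means only that no KO peak was called on it. Weak KO coverage at such a WT peak cannot be told apart from none. A nearest WT peak could be shared, and 386 members had one that was also nearest to another member, which the intervals do not take into account. The members' shares thus count KO peaks, while the 2.34% counts each WT peak once. A retained WT peak has, by definition, another KO peak on it. In the densest windows described below the share was 26.2%, and for members elsewhere it was 5.91%.

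The members beside a retained WT peak were taller than those beside a lost one. Their median pileup was 21 fragments over a median background of 4.89, and 62.5% of them were of over 1 to 10 copies. Beside a lost WT peak the median pileup was 10 over a background of 1.14, and 30.5% of members were of over 1 to 10 copies. The WT neighbours had a median pileup of 23 where retained and of 10 where lost.

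Paired with its nearest WT peak, a member was higher in pileup in 28.7% of pairs, equal in 365 and lower in 615. The median ratio of member to WT pileup was 1, with quartiles of 0.875 and 1.1. The member was the narrower peak in 987 pairs, with a median width ratio of 0.688. Both lists had a lowest pileup of 9, and the lowest width was 65 bp in KO and 70 bp in WT. The fragment depth of each library is unknown, so these ratios do not compare amounts of the mark. Across the 1375 pairs the Spearman rank correlation was 0.64 for pileup, 0.70 for local background and 0.10 for width. These correlations are a description only, since neighbouring pairs share WT peaks and genome segments. Outside the densest windows described below, over 1066 members, they were 0.33 for pileup and 0.44 for background. The copy class (1, over 1 to 10, over 10 to 100, over 100 to 1000, over 1000) was the same in member and neighbour in 777 pairs (56.5%, 53.9 to 59.1). Among the 466 members of over 1 to 10 copies, 318 lay beside a WT peak of that class (68.2%, 63.9 to 72.3), a class that held 32.7% of all the nearest WT peaks.

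**Figure D3:**
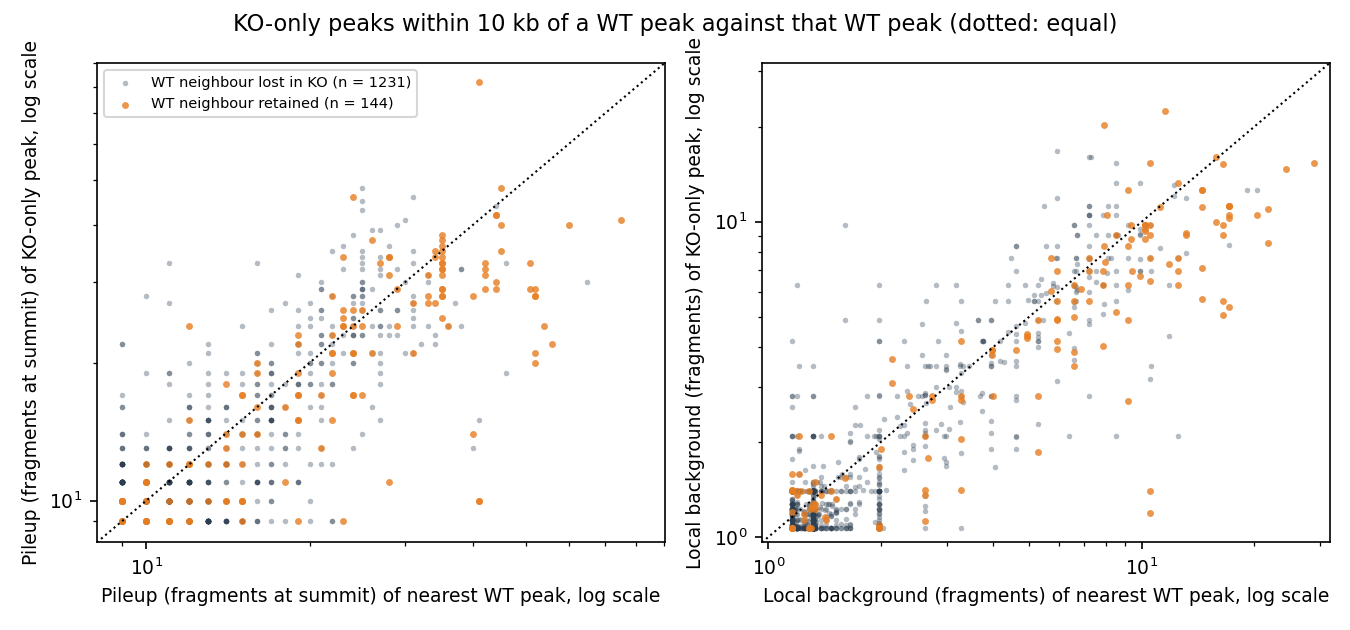
Each point is 1 of the 1375 members, plotted against its nearest WT peak for pileup (left, fragments) and local background (right, fragments), both axes on a log scale, with equality dotted. Orange points, the 144 members beside a retained WT peak, sit higher on both axes, with a median pileup of 21 in KO and 23 in WT, than the 1231 dark points beside a lost one, with a median of 10 in both.

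The members' numbers by chromosome followed those of the KO list in part. Chromosome 8 held 250 of them, 40.5% of its 618 KO peaks (36.7 to 44.4), and chromosome 12 held 8, 19.5% of its 41 KO peaks (10.2 to 34.0), beside 37.5% over all autosomes. Another KO peak lay within 10 kb of 621 members (45.2%, 42.6 to 47.8), of 10.8% of the farther KO-only peaks (9.45 to 12.4), of 71.9% of KO peaks on WT peaks (68.1 to 75.5) and of 33.0% of all autosomal KO peaks. In 8 windows of 1 Mb there were 20 or more members each, 309 in all (22.5%). The window on chromosome 1 from 85 Mb held 66 members among 83 KO and 91 WT peaks, 15 of the WT peaks retained. The window on chromosome 8 from 19 Mb held 45 members among 90 KO and 116 WT peaks, 41 of them retained. The window on chromosome 1 from 87 Mb held 43, those on chromosome 5 from 15 and 14 Mb held 39 and 23, those on chromosome 4 from 146 and 145 Mb held 37 and 26, and the one on chromosome 8 from 73 Mb held 30.

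The 309 members of these windows differed in height from the rest. Their median pileup was 20 over a median background of 4.89, 76.7% were of over 1 to 10 copies, and 26.2% lay nearest to a retained WT peak. The 1066 members elsewhere had a median pileup of 10 over a background of 1.08, and 5.91% lay nearest to a retained WT peak. Among those 1066, 54.9% were single-copy (51.9 to 57.8), compared with 75.8% of the farther KO-only peaks outside the same windows (73.7 to 77.7), and 49.4% were at the background floor (46.4 to 52.4), compared with 70.7% (68.5 to 72.8). In these single-copy and floor shares the near and the farther KO-only peaks differed by less without the dense windows, in the same direction.

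**Figure D4:**
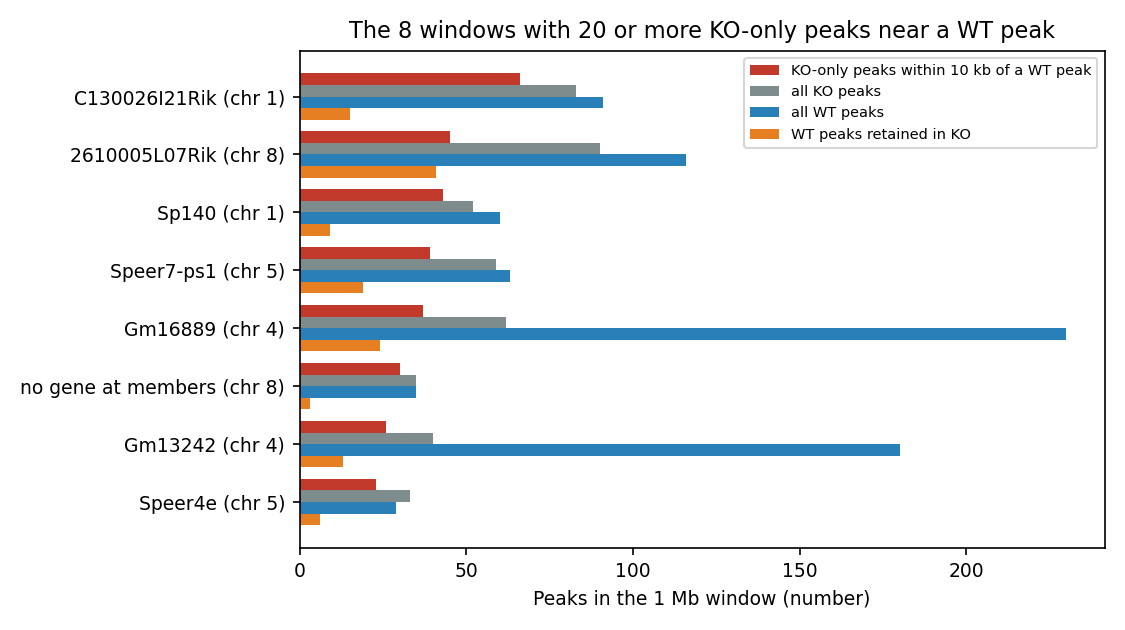
Number of peaks (horizontal) in the 8 windows of 1 Mb with 20 or more members, each labelled by its chromosome and the gene whose body held most members, except that on chromosome 8 from 73 Mb, where no member lay in a gene body; bars show the members, all KO peaks, all WT peaks and the retained WT peaks. In the C130026I21Rik window 66 of 83 KO peaks were members, and the 2 windows of chromosome 4 had the most WT peaks, 230 and 180.

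Members were joined into chains where they followed each other within 10 kb. Of the 1375, 817 stood alone (59.4%), and 23 chains of 5 or more took up 255 (18.5%). The longest chain, chr8:19918762-19973733, held 27 members over 54.97 kb, with member pileups from 24 to 41 and a median of 31. Interleaved with them were 33 WT peaks, with pileups from 25 to 75 and a median of 33, of which 18 were retained and 15 lost. The median background was 9.45 around the members and 10.2 around the WT peaks, above the median background of 1.18 over all members and of 1.22 over all WT peaks. The second chain, chr1:85248399-85285437, held 22 members with pileups from 16 to 32 and a median of 24, among 13 WT peaks with a median of 21, of which 2 were retained. The third, chr1:87485187-87539984, held 20 members with pileups from 11 to 35 and a median of 21, among 17 WT peaks with the same median, of which 3 were retained.

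**Figure D5:**
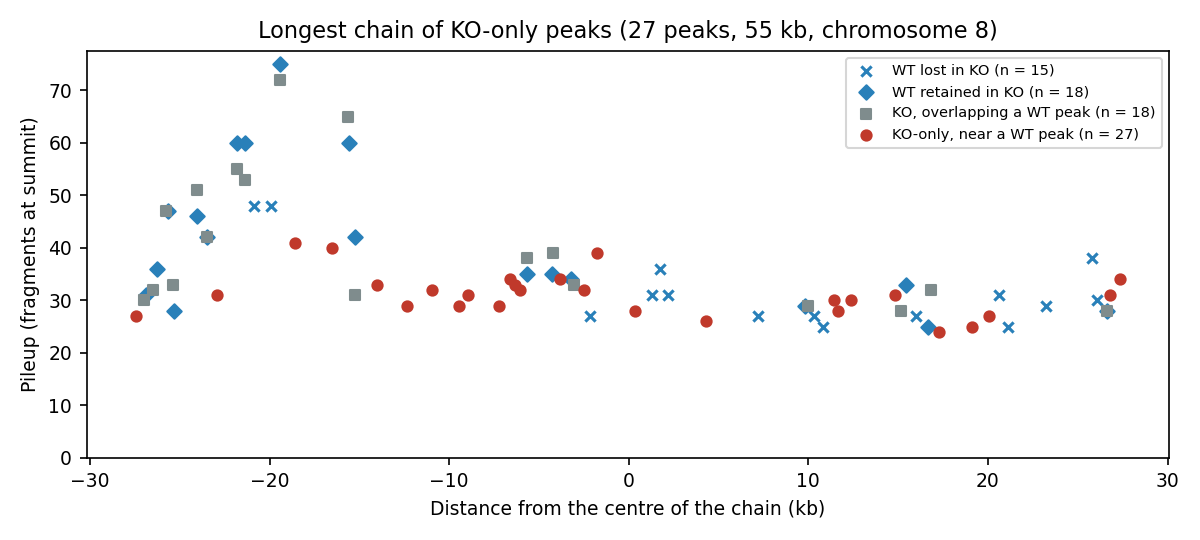
Pileup (vertical, fragments) of every peak in the longest chain against its distance from the chain's centre (kb), for 27 members, 18 KO peaks overlapping a WT peak, 18 retained and 15 lost WT peaks. The members ran from 24 to 41 fragments across the whole 54.97 kb, and the WT peaks from 25 to 75.

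Gene bodies held 406 members (29.5%, 27.2 to 32.0), near the 29.6% of all autosomal KO peaks. The share was 27.7% for the farther KO-only peaks (25.7 to 29.9) and 24.4% for WT peaks (23.9 to 24.99). The members' share was 60.8% in the dense windows and 20.5% elsewhere, where 27.5% of the farther KO-only peaks were in gene bodies. Bodies of lincRNA genes held 84 members (6.11%, 4.96 to 7.501), 16 farther KO-only peaks (0.921%, 0.568 to 1.49), 93 KO peaks on WT peaks (16.7%, 13.9 to 20.1) and 2.72% of WT peaks (2.51 to 2.94). Over all autosomal KO peaks the share was 5.26%. The lincRNA genes AC152164.1 and Gm17279, which overlap on chromosome 8 in 1 of the dense windows, each held 30 members, and Gm16889 on chromosome 4 held 20. Promoters, from 2 kb upstream to 500 bp downstream of any annotated transcript start, held 98 members (7.13%, 5.88 to 8.61), and exons 48 (3.49%, 2.64 to 4.60). Among the farther KO-only peaks the shares were 3.86% (3.05 to 4.87) and 2.07% (1.501 to 2.86), and among KO peaks on WT peaks 12.4% and 7.19%. Over all autosomal KO peaks they were 6.38% and 3.38%, near those of the members.

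In 35 genes the body held 3 or more members. C130026I21Rik on chromosome 1 held 50, with pileups from 9 to 32 and a median of 21, along with 74 WT peaks of which 10 were retained. The processed transcript 2610005L07Rik on chromosome 8 held 30, with pileups from 17 to 41, and the same 157 kb include the protein-coding gene Gm15319 with 16. Sp140, which encodes a nuclear body protein of the Sp100 family that reads histone marks, held 15 members with pileups from 11 to 35, among 14 WT peaks of which 3 were retained. Its neighbour Sp110, of the same family, held 4, with pileups from 21 to 26 and no retained WT peak among 6. These segments of chromosomes 1 and 8 were of low copy number (medians of 2 and 3 in these genes), and a read could belong to another copy. In contrast, Lin28b, an inhibitor of let-7 microRNA maturation, held 3 single-copy members with pileups from 9 to 11, and none of its 12 WT peaks was retained. Prkg1, a cGMP-dependent protein kinase gene, and Rims2, a gene of the presynaptic release machinery, held 3 each with pileups of 9 to 10.

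Of the 20 gene families examined, taken by the start of the gene symbol, 8 had a member in a gene body. No share over all genes was computed beside these families, so the counts do not show whether a family held many or few members. Genes of a family can also lie side by side, as Sp140 and Sp110 do in the third chain. The Sp100 family had members in 3 of 3 genes, Sp140, Sp110 and Sp100, the last with 2, and WT peaks in the same 3. The Speer genes, expressed in the testis, had members in 4 of 12 and WT peaks in 2. Of these genes Speer7-ps1 held 8 members with pileups from 20 to 40, Speer4e 3 and Speer4d 2. Cytochrome P450 (Cyp) genes, which encode oxidising enzymes, had members in 6 of 105 and farther KO-only peaks in 3. The pheromone receptor (Vmn2r) genes had members in 5 of 178 and farther KO-only peaks in 10. Zinc finger genes with a symbol starting with Zfp, of which 77 of 365 held a WT peak, had members in 2, Zfp534 with 3 and Zfp600 with 1. Members only at a promoter outside the gene body, as at Zfp936, are not in these family counts. Farther KO-only peaks lay in 1 of these Zfp genes and KO peaks on WT peaks in 1. Zinc finger genes under other symbols were not counted, so these numbers do not describe zinc finger genes as a whole. Skint genes had members in 2 of 11, olfactory receptor (Olfr) genes in 2 of 1241 and protocadherin (Pcdh) genes in 1 of 35. None of the annotated Vmn1r, Def, Ugt, Serpin, Klr, Krt, Hist, Rps, Rpl, Mir or Snor genes held a member, and none held a KO peak of the other classes.

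An exon or promoter of 49 protein-coding genes held a member, and the 12 with the highest-scoring one are described here. Protein-coding promoters held 4.07% of the members and protein-coding exons 2.62%, near the 4.50% and 2.73% over all autosomal KO peaks. The Sp140 member, chr1:87528004-87528141, lay at an internal transcript start and had a pileup of 22 and a fold enrichment of 5.22, beside a WT peak of pileup 19 at 3037 bp. The 4930572O03Rik promoter member had a pileup of 38. The Dux promoter, the start of a gene for a transcription factor of the early embryo, held a member of pileup 34 and 3 copies, chr10:57689094-57689360, with 17 WT peaks within 10 kb and a retained one of pileup 28 at 1230 bp. The C130026I21Rik, Sp110 and Gm15319 members had pileups of 23, 26 and 31. Gm13152, Zfp534, Gm13247, Speer4e and A530032D15Rik had members of pileups 16, 18, 15, 43 and 28. The Sox17 member had a low background, with a pileup of 12 over 1.07 fragments and a fold enrichment of 6.29. It was single-copy, lay in an exon of this endoderm transcription factor gene, in the untranslated part, and was 2338 bp from a WT peak of pileup 9 that was lost.

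The remaining genes mostly had low members. Of the 49 genes, 24 had as their leading member a single-copy peak with a pileup of 9 or 10. These included several developmental regulators, picked here after their values were seen: Zic4 and Pax6 at pileup 10 and fold enrichment 5.32, Sfmbt2 at pileup 10 and 244 bp upstream of the gene start, Sox14 at pileup 10, and Prdm13 and Hoxb13 at pileup 9. Their gaps to the nearest WT peak were 193 bp for Zic4, 6381 for Pax6, 538 for Sfmbt2, 197 for Sox14, 542 for Prdm13 and 4065 for Hoxb13. The share of such regulators among all genes was not computed. At such pileups the members were at the lower limit of what the caller reported, and a WT coverage just under that limit cannot be told apart from none.

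At the starts of the chromosomes, where mouse centromeres lie, 30 members began within the first 3.5 Mb (2.18%, 1.53 to 3.10), as did 0.461% of the farther KO-only peaks (0.234 to 0.906), 18.3% of KO peaks on WT peaks (15.3 to 21.8) and 1.503% of WT peaks (1.35 to 1.67). They came from 12 chromosomes and their pileups ran from 9 to 82 with a median of 15. The 6 on chromosome 17, between 3007023 and 3035582, had pileups from 19 to 48 with a median of 37.5, over a median background of 9.81.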

How the data were processed

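H3K9me3 and input were sequenced in 7 samples, of which the 2 iMEF H3K9me3 libraries had a peak list and 5 samples entered no comparison. The authors aligned the single-end iMEF reads to the mm9 genome (Bowtie2 2.2.3), placed each multi-hit read at random and removed duplicates with Picard. Per the file headers and the submitters' processing notes, MACS2 2.1.0.20140616 called the peaks. Its options are not given in the sources used here. The deposited pileup is a fragment coverage at the summit, the deposited fold enrichment a ratio over local background, and the deposited significance columns −log10 of a p-value and of a q-value. Library totals are not given in the lists, and the paper gives a range of read numbers for the iMEF libraries but none for each. The fragment depth of each library is therefore unknown here, and intervals cover counting error only.

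From these values, the local background was computed as (pileup + 1) / fold − 1, width as end minus start plus 1, and a gap as the bases between facing ends. Whether starts count from 0 or 1 is not stated. Copy numbers used 31-base words on both strands of mm9, shared sequence 20-base words, and genes GENCODE M1 on the same build. Shares carry 95% Wilson intervals. No test was run, since each group had 1 library. Interval code was tested on simulated data and against bedtools 2.31.1. Python 3.11.15, pandas 2.3.3, numpy 2.4.6, scipy 1.17.1, samtools 1.23.1 and matplotlib 3.10.9 were used.

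The members, gene families and lists were chosen with earlier results of these data known. Named were the 6 highest-scoring members, the 3 longest chains, the members on either side of the gap limit, up to 12 protein-coding genes with a member on an exon or promoter, genes with 3 or more members and up to 3 genes per family. Alternatives changed the gap limit, score, pileup, overlap, merging, start convention, word lengths, promoter, gene type, chain distance and the regions left out.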

Additional observations from a re-analysis of the deposited data

How the results depend on the processing

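Of 51 recomputed values, 16 stayed within 1.5 times the reported number of members or inside the interval of the reported share or median, and 35 did not. The number of members fell to 513 with gaps of at most 1000 bp, to 525 with only peaks of a score at or above the WT median in both lists, and to 295 with a pileup of at least 15 in both. Gaps of at most 1000 bp put 25.5% of members at the background floor, 17.5% beside a retained WT peak, 34.1% on single-copy sequence and 1.75% with a 20-base word shared with the neighbour. The score minimum gave 20.2%, 14.1%, 31.8% and 3.81%, with 34.5% in gene bodies and 9.71% at promoters. The pileup minimum gave 0%, by its own construction, then 31.2%, 15.3% and 3.39%, with 51.9% within 1000 bp of a WT peak, a median GC of 39.5%, 48.5% in gene bodies and 13.9% at promoters. Without windows of 20 or more members the floor share was 49.4%, the retained share 5.91%, the single-copy share 54.9%, the share within 1000 bp 34.0%, in gene bodies 20.5% and at promoters 4.69%. The share within 1000 bp was 30.5% with peaks within 1000 bp merged, 40.1% when a KO peak had to share at least 50% of its bases to count as overlapping, and 34.8% without chromosomes 8 and 9. Words of 50 bases made 61.2% of members single-copy. Protein-coding genes alone gave 22.6% in bodies and 4.07% at promoters, and a promoter of 5 kb gave 12.4%. Joining members within 50000 bp put 39.6% in chains of 3 or more, against 27.3% at 10 kb. For settings other than the pileup minimum's floor share the cause was not tested. No paired analysis was possible because WT and KO were single libraries. The fragment depth of each library was unknown, and 38.9% of members had the lowest pileup called, so that weak WT coverage at a member could not be told apart from none.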
